A study of Mus musculus with 25 samples.

Results

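The surface marker genes of the hematopoietic stem cell were followed in HSLAM cells with and without *Znf143*. The 9 genes are set by name, without a threshold on their values. They are *Slamf1*, *Cd48*, *Kit* and *Ly6a*, whose products define the sort, and *Procr*, *Cd34*, *Tek*, *Esam* and *Fgd5*, which are not part of it. The latter group marks stem cells except for *Cd34*, as the study takes long-term stem cells to be CD34-. The table holds 23116 genes, and all 9 were found in it and passed the filter on low values (FPKM averaging 0.1 or more, met by 19296 genes). FPKM are fragments per kilobase of gene length, scaled to the library total.

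HSLAM cells are lineage-negative, Sca-1+ c-Kit+ (LSK) cells that are CD150+ and CD48-, a bone marrow population rich in hematopoietic stem cells. RNA was measured in 3 *Znf143 f/f* and 3 *Znf143 -/-* libraries from adult male C57BL/6 littermates. Mice of both genotypes carried floxed *Znf143* alleles with loxP sites around exon 1 and received tamoxifen. The *Znf143 f/f* mice lacked *Rosa26ERT2-Cre*, and the *Znf143 -/-* mice carried it, so that the deletion and the presence of Cre cannot be told apart. *Rosa26* is active in most tissues, so that this driver does not limit the deletion to blood cells. The sample labels name the deleted genotype a CTCF knockout, whereas the study describes a deletion of *Znf143*.

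CD150, encoded by *Slamf1*, and CD48 are receptors of the SLAM family on blood cells. CD150 is found on the most immature stem cells, and CD48 appears as they turn into multipotent progenitors. c-Kit is the receptor for stem cell factor, and Sca-1 (*Ly6a*) is a small lipid-anchored protein of the Ly6 family whose gene is known to respond to interferon. The sort reads the proteins, and the values below are levels of the RNA in cells that had already passed it.

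The *Cd48* and *Slamf1* genes lie 61.9 kb apart on chromosome 1, both on the plus strand. The 250 bases before each RefSeq gene start (GRCm38.p6, plus strand) are shown because these neighbours are the positive and the negative gate of the sort. Capitals mark CG dinucleotides.
Cd48: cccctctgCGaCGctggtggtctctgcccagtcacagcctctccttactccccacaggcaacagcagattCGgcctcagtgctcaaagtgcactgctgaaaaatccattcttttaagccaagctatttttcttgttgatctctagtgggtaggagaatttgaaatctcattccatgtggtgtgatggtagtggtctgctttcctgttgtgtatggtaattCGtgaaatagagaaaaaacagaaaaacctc
Slamf1: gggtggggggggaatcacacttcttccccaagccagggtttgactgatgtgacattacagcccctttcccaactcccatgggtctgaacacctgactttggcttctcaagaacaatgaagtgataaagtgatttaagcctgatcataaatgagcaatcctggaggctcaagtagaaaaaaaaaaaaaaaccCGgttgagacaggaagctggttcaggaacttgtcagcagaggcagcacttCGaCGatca
The *Cd48* stretch is chr1:171681742-171681991 and holds 4 CG, and the *Slamf1* stretch is chr1:171766882-171767131 and holds 3. Windows of 300 bases, with 50 bases after the start added, were listed for 7 of the 9 genes (8 windows, with a pair for *Kit*). *Ly6a* and *Esam* had no entry. The GC content of these windows was 47.3% for *Cd48*, 49% for *Slamf1*, 50% for *Cd34*, 52% for *Tek*, 58.3% for *Procr*, 69% for *Kit* and 71.3% for *Fgd5*, with a median of 52.7% over all 32851 windows. *Cd48* and *Slamf1* thus had the lowest GC content of the 7 genes, and *Kit* and *Fgd5* the highest. Both strands were searched for ACTACAA (a part of some ZNF143 sites, and not their core) and TTCNNNGAA (bound by STAT proteins). The interferon response element (2 copies of GAAA with 2 bases between them) was searched as well. These letters were in 0 of the 8 windows. Of all windows, 3.24%, 8.30% and 3.44% held them. Absence from this window says nothing of binding elsewhere, and the rest of the ZNF143 motif was not searched.

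The libraries held 38643255 to 57895793 fragments on genes. The FPKM of the third *Znf143 -/-* library had been divided by the total of the second (48378188 in place of 57895793), and all FPKM below were therefore rescaled by median-of-ratios size factors. Fold changes give *Znf143 -/-* over *Znf143 f/f* throughout, and their median over the tested genes was 0.0075 on the log2 scale after rescaling and 0.11 as deposited. Libraries 1 and 3 of *Znf143 f/f* and libraries 2 and 3 of *Znf143 -/-* stood out as close pairs. Their mean chi-square per gene, which is 1 when counting noise is the only difference, was 5.10 and 7.02. That of the other same-genotype pairs was 88.2 to 132. Pairs of different genotype had 80.2 to 210, so outside the close pairs libraries of a genotype were not clearly nearer to each other. Over genes with 20 to 99 fragments in a pair, the close pairs had 1.69 and 1.63. The close pairs differed beyond counting noise and were kept as separate libraries. The labels do not say whether they share cells or RNA, and p-values measure only the spread between these libraries, which may be technical in part. The calls between genotypes are given also with the close pairs averaged, 2 against 2, an alternative added after the data were seen. *Znf143* is listed as *Zfp143*. It had 3.07, 4.43 and 3.66 FPKM in *Znf143 f/f* and 0.155, 0.298 and 0.270 FPKM in *Znf143 -/-* libraries, with a log2 fold change of -3.50 (SE 0.239, adjusted p = 0.00101 from limma, 0.0321 with close pairs averaged).

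Of the 9 genes, *Ly6a* and *Cd48* rose in *Znf143 -/-* HSLAM cells, to means 2.18 and 1.97 times those of *Znf143 f/f* cells. By the same test 0 of the 9 fell. *Slamf1* and *Kit* had log2 fold changes of 0.36 and -0.45 that did not pass it. The 2 of 9 genes called by limma at an adjusted p under 0.05 stand beside 6.00% of all tested genes called, 3.01% higher and 2.99% lower. The genotypes did not overlap for 4 of the 9 genes, beside 30.8% of all genes. As deposited, 2 of 9 were called (4.32% of all genes), and 2 of 9 did not overlap (25.1% of all genes). With the close pairs averaged, 0 of 9 passed limma's adjusted p of 0.05 (0.244% of all genes), and 3 of 9 had an unadjusted p under 0.05 (9.91% of all genes), the same number as with all libraries (24.2% of all genes). In bulk RNA, fewer cells of a type and less RNA per cell cannot be told apart.

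**Figure D1:**
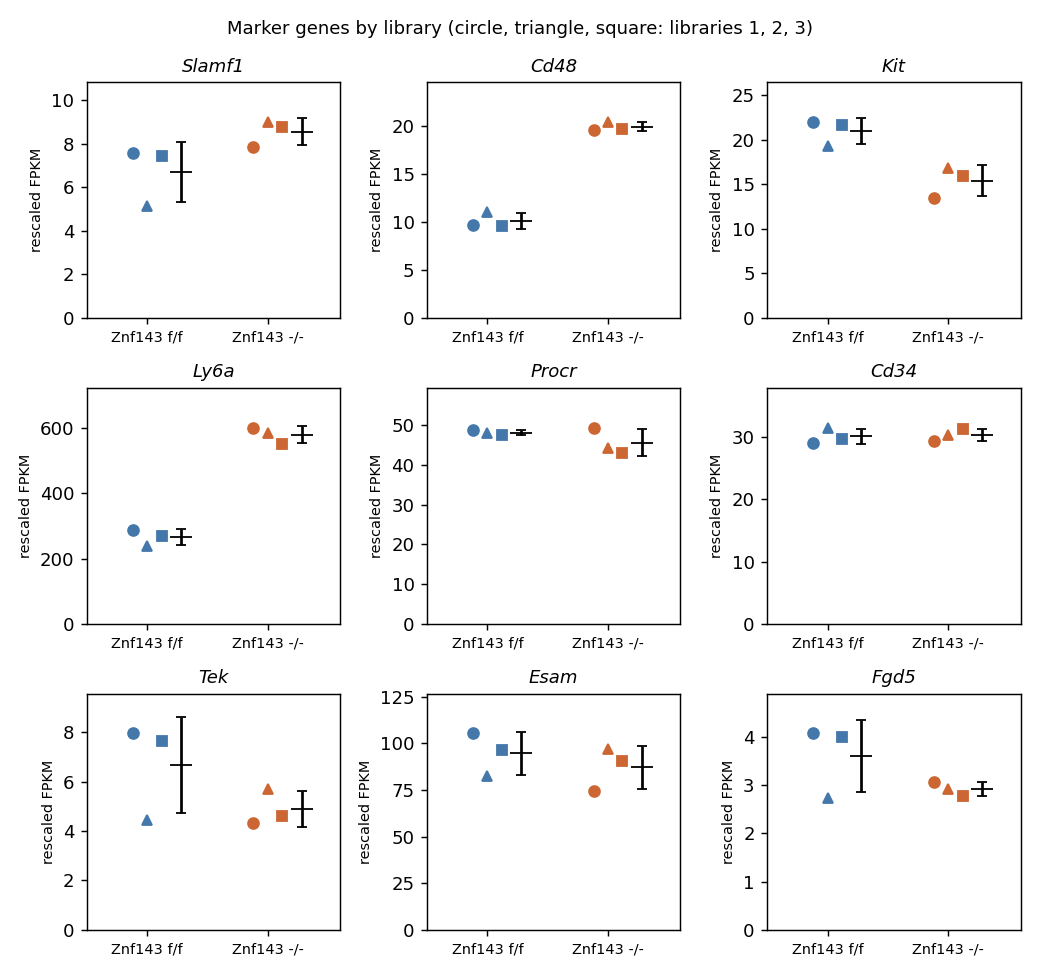
Rescaled FPKM of the 9 marker genes in each library (y axes from 0), with *Znf143 f/f* on the left and *Znf143 -/-* on the right of each panel. Circles, triangles and squares are libraries 1, 2 and 3, and bars are the mean ± SD (n = 3). *Ly6a* and *Cd48* show a wide gap between genotypes, *Kit* and *Slamf1* a narrow one, and the other 5 genes overlap.

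*Ly6a* (ENSMUSG00000075602.10, chromosome 15, 74994877 to 74998031, minus strand, GRCm38) was the most abundant of the 9 genes. It reached FPKM of 288, 239 and 269 in *Znf143 f/f* and 602, 586 and 550 in *Znf143 -/-* libraries. Every *Znf143 -/-* library lay far above every *Znf143 f/f* library. The mean rose from 265.5 ± 24.8 (SD, n = 3) to 579 ± 26.5 (SD, n = 3), a ratio of 2.18. The log2 fold change was 1.13 (SE 0.113, 95% confidence interval 0.859 to 1.40, adjusted p = 0.00454 by limma). With close pairs averaged it was 1.179 (95% confidence interval 0.649 to 1.71), and the adjusted p from limma was 0.144. A two-sided exact permutation test gave p = 0.1, and 3 against 3 libraries cannot give a smaller one. These levels rest on 13363 to 38709 fragments. *Ly6a* has close relatives in the Ly6 cluster, and how the counting treated reads that match several of them is not given in the sources used here.

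*Cd48* (ENSMUSG00000015355.13, chromosome 1, 171682009 to 171705258, plus strand) encodes the protein that the sort excluded. Its level was 9.68, 11.1 and 9.56 FPKM in *Znf143 f/f* and 19.6, 20.4 and 19.7 FPKM in *Znf143 -/-* libraries. The *Znf143 -/-* libraries lay close together and well above all *Znf143 f/f* libraries. The mean rose from 10.1 ± 0.846 (SD, n = 3) to 19.9 ± 0.469 (SD, n = 3), a ratio of 1.97. On the log2 scale the fold change was 0.97 (SE 0.0895, 95% confidence interval 0.760 to 1.19, adjusted p = 0.00306 by limma). With close pairs averaged it was 0.93 (95% confidence interval 0.520 to 1.35), with an adjusted p of 0.138 by limma. The values rest on 443 to 1369 fragments.

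*Slamf1* (ENSMUSG00000015316.11, chromosome 1, 171767127 to 171801184, plus strand), the positive gate, had an FPKM of 7.59, 5.14 and 7.43 in *Znf143 f/f* and of 7.87, 9.03 and 8.79 in *Znf143 -/-* libraries. The second *Znf143 f/f* library stood below the other two, and the genotypes did not overlap after rescaling but did as deposited. The means were 6.72 ± 1.37 and 8.56 ± 0.612 (SD, n = 3 each). Its log2 fold change of 0.36 (SE 0.167, 95% confidence interval -0.0335 to 0.761) did not pass the test (adjusted p = 0.240 from limma, 0.656 with close pairs averaged).

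The ratio of *Cd48* to *Slamf1* FPKM within a library is free of library scaling. It was 1.28, 2.16 and 1.29 in *Znf143 f/f* and 2.49, 2.27 and 2.24 in *Znf143 -/-* libraries. The second *Znf143 f/f* library lay just below the *Znf143 -/-* range, and the close pair of *Znf143 f/f* libraries far below it. The difference of the log2 ratio was 0.61 (two-sided exact permutation test, p = 0.1) and lay between 0.484 and 0.863 with 1 library left out. With 3 libraries against 3 the exact test cannot give a smaller p, and an unequal change of the neighbours could not be shown.

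*Kit* (ENSMUSG00000005672.12, chromosome 5, 75574916 to 75656722, plus strand) had an FPKM of 22.1, 19.4 and 21.7 in *Znf143 f/f* and of 13.5, 16.8 and 16.0 in *Znf143 -/-* libraries. All *Znf143 -/-* libraries were lower after rescaling, but the genotypes overlapped as deposited. The means were 21.0 ± 1.46 and 15.4 ± 1.74 (SD, n = 3 each), a ratio of 0.733. Its log2 fold change was -0.45 (SE 0.112, 95% confidence interval -0.715 to -0.183), and limma's adjusted p was 0.0659 (0.486 with close pairs averaged). Without the second *Znf143 f/f* library it was -0.51, and the adjusted p from limma was 0.0495.

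The 5 genes outside the sort did not pass the test, with limma's adjusted p at 0.353 to 0.949, and at 0.824 to 0.987 with close pairs averaged. *Procr* (ENSMUSG00000027611.12, chromosome 2, 155751117 to 155755471, plus strand) encodes EPCR, the protein C receptor found on stem cells. Its libraries gave FPKM of 48.7, 48.0 and 47.6 in *Znf143 f/f* and 49.4, 44.3 and 42.9 in *Znf143 -/-* libraries. The *Znf143 -/-* values lay on both sides of the narrow *Znf143 f/f* range. The means were 48.1 ± 0.560 and 45.5 ± 3.40 (SD, n = 3 each). *Procr* had a log2 fold change of -0.08 (SE 0.0825, 95% confidence interval -0.278 to 0.116, adjusted p = 0.602 from limma), and of 0.03 as deposited.

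*Cd34* (ENSMUSG00000016494.9, chromosome 1, 194938819 to 194961279, plus strand) encodes a sialomucin that is low on the surface of adult mouse long-term stem cells. FPKM of *Cd34* were 29.1, 31.6 and 29.7 in *Znf143 f/f* and 29.4, 30.4 and 31.3 in *Znf143 -/-* libraries. The ranges of the genotypes lay on top of each other, with means of 30.1 ± 1.27 and 30.4 ± 0.965 (SD, n = 3 each). Its log2 fold change of 0.01 (adjusted p = 0.949 from limma) had the narrowest 95% confidence interval of the 9 genes (-0.169 to 0.190).

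*Tek* (ENSMUSG00000006386.15, chromosome 4, 94739289 to 94874976, plus strand) encodes TIE2, the angiopoietin receptor shared by stem cells and endothelium. *Tek* had FPKM of 7.95, 4.45 and 7.67 in *Znf143 f/f* and 4.33, 5.71 and 4.63 in *Znf143 -/-* libraries. The second *Znf143 f/f* library lay within the *Znf143 -/-* range, and the means were 6.69 ± 1.95 and 4.89 ± 0.727 (SD, n = 3 each). *Tek* had a log2 fold change of -0.41 (SE 0.240, 95% confidence interval -0.983 to 0.166, adjusted p = 0.353 from limma). Without that library it was -0.67, with an adjusted p of 0.0409 from limma.

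*Esam* (ENSMUSG00000001946.14, chromosome 9, 37528078 to 37538319, plus strand) encodes an adhesion molecule of endothelial and stem cells. For *Esam*, the libraries gave FPKM of 105, 82.4 and 96.5 in *Znf143 f/f* and 74.4, 96.8 and 90.5 in *Znf143 -/-* libraries. The genotypes overlapped over most of their range, with means of 94.7 ± 11.5 and 87.2 ± 11.5 (SD, n = 3 each). Its log2 fold change was -0.12 (95% confidence interval -0.450 to 0.209, adjusted p = 0.647 from limma).

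*Fgd5* (ENSMUSG00000034037.14, chromosome 6, 91978878 to 92076004, plus strand) encodes a cytoplasmic exchange factor for Cdc42 and is no surface protein, but its locus is used to report stem cells. *Fgd5* had FPKM of 4.08, 2.74 and 4.0 in *Znf143 f/f* and 3.08, 2.93 and 2.77 in *Znf143 -/-* libraries. The second *Znf143 f/f* library was the lowest of all 6, and the means were 3.60 ± 0.753 and 2.93 ± 0.152 (SD, n = 3 each). The log2 fold change was -0.27 (SE 0.175, 95% confidence interval -0.688 to 0.146, adjusted p = 0.396 from limma). Without that library it was -0.45, with an adjusted p of 0.0448 from limma.

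**Figure D2:**
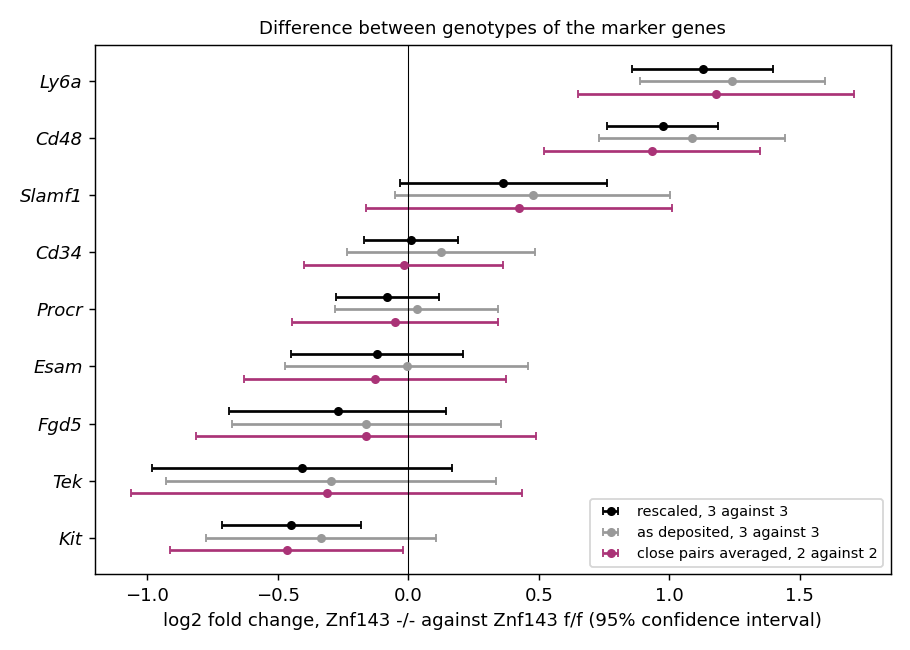
Log2 fold change of the 9 marker genes (x axis, *Znf143 -/-* against *Znf143 f/f*) with its 95% confidence interval. The fits use rescaled FPKM (black), FPKM as deposited (grey), and rescaled FPKM with close pairs averaged (purple). The intervals of *Ly6a* and *Cd48* lie above 0 in all 3 fits, and that of *Kit* lies below 0 except as deposited.

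The order of the levels, per kilobase, was *Ly6a*, *Esam*, *Procr*, *Cd34*, *Kit*, *Cd48*, *Slamf1*, *Tek* and *Fgd5* in *Znf143 f/f* cells. *Ly6a* had a mean FPKM of 265.5 and *Fgd5* of 3.60, above 98.8% and 64.1% of all 23116 genes, including those that failed the filter. The ranges of neighbours in this order were apart except for *Slamf1* and *Tek*, which overlapped. In *Znf143 -/-* cells *Cd48* stood above *Kit*, and no neighbours overlapped. Within *Znf143 f/f*, *Procr* was the steadiest gene, with a coefficient of variation of 1.16%, and *Tek* the most variable, with 29.1%.

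Relatives of the sorted markers were read next. Of 8 Ly6 family genes tested, *Ly6a* itself among them, *Ly6a*, *Ly6c1* and *Ly6e* rose and 0 fell. The median log2 fold change was 0.97, with *Ly6a* included, beside 0.0075 over all tested genes. *Ly6k*, *Ly6i* and *Lypd2* also enter this median, with at most 59, 36 and 47 fragments per library. *Lypd2* had a log2 fold change of -1.71 (SE 0.752) and was not called. With close pairs averaged, 0 of these 8 were called by limma. An unadjusted p under 0.05 was then held by 5 (9.91% of all tested genes), against 6 with all libraries (24.2% of all tested genes). *Ly6c1*, which lies 46.0 kb from *Ly6a*, had an FPKM of 1.63, 1.28 and 1.27 in *Znf143 f/f* and of 7.02, 5.17 and 5.14 in *Znf143 -/-* libraries (log2 fold change 1.97, SE 0.174, adjusted p = 0.00252 from limma). *Ly6e*, which is broadly expressed and lies 35.0 kb from *Ly6a*, had an FPKM of 339, 304 and 322 in *Znf143 f/f* and of 520, 518 and 489 in *Znf143 -/-* libraries (log2 fold change 0.66, SE 0.0999, adjusted p = 0.0166 from limma). For both genes the genotypes were apart. Whether reads are shared among the similar Ly6 genes was not tested, and the split between them is uncertain to that extent.

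Of 7 SLAM family genes tested, *Cd48* and *Slamf1* among them, *Cd48* rose and the other 6 were not called. The median log2 fold change of the 7 was 0.35. Averaging the close pairs left 0 of the 7 called by limma, and 2 had an unadjusted p under 0.05 (9.91% of all tested genes). *Ly9* and *Cd84*, self-binding receptors of the family, had log2 fold changes of 0.07 (SE 0.205) and 0.05 (SE 0.101). *Ly9* had an FPKM of 7.37, 4.33 and 7.06 in *Znf143 f/f* and of 6.33, 6.49 and 6.40 in *Znf143 -/-* libraries, again with the second *Znf143 f/f* library lowest. *Cd244*, the receptor for CD48, had an FPKM of 0.746, 0.529 and 0.766 in *Znf143 f/f* and of 1.01, 0.8885 and 0.762 in *Znf143 -/-* libraries. Its log2 fold change was 0.35 (SE 0.211), which limma did not call.

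**Figure D3:**
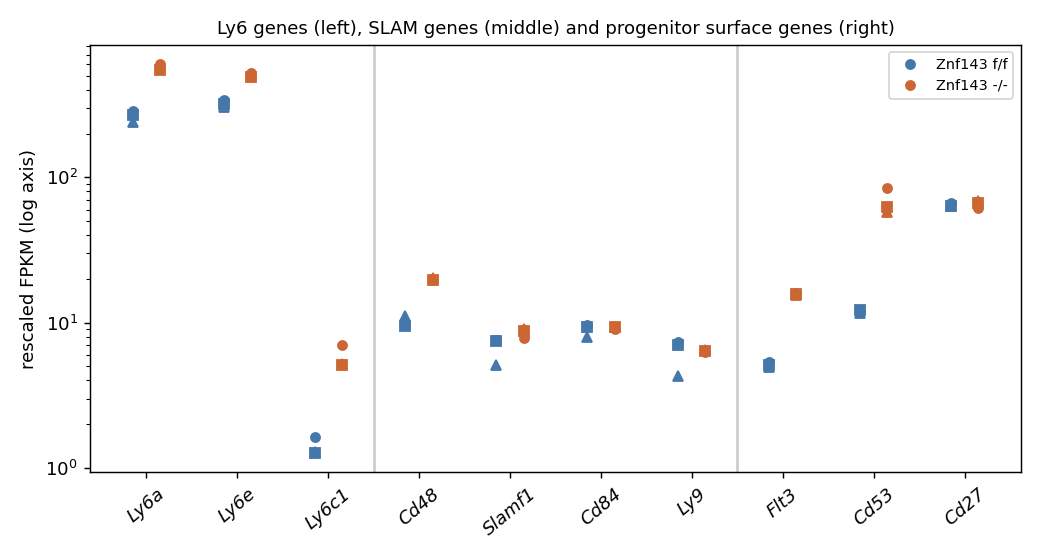
Rescaled FPKM on a log axis in each library, with *Znf143 f/f* in blue and *Znf143 -/-* in orange (circle, triangle, square: libraries 1, 2, 3). *Ly6a*, *Ly6e*, *Ly6c1*, *Cd48*, *Flt3* and *Cd53* are higher in every *Znf143 -/-* library, as is *Slamf1* by a narrow gap, whereas *Cd84*, *Ly9* and *Cd27* overlap.

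Surface genes of multipotent and later progenitors were read beside *Cd48*. Of 10 tested, *Flt3* and *Cd53* rose and 0 fell (median log2 fold change 0.15). *Csf1r* was also called higher, but it passed the filter on low values only through its *Znf143 -/-* libraries. *Flt3*, the receptor that marks lymphoid-primed progenitors, had an FPKM of 5.39, 4.97 and 5.14 in *Znf143 f/f* and of 16.0, 15.6 and 15.8 in *Znf143 -/-* libraries. Its log2 fold change was 1.59 (SE 0.0809, adjusted p = 0.000416 from limma, 0.0402 with close pairs averaged). *Cd53*, a tetraspanin of leukocytes, had an FPKM of 11.8, 11.6 and 12.2 in *Znf143 f/f* and of 84.8, 57.8 and 62.4 in *Znf143 -/-* libraries. Its log2 fold change was 2.496 (SE 0.148, adjusted p = 0.000702 from limma, 0.0270 with close pairs averaged). These 2 genes were the ones of the 10 that limma called also with the pairs averaged. *Csf1r*, the receptor for macrophage colony-stimulating factor, had 1, 0 and 3 fragments in *Znf143 f/f* and 40, 63 and 56 in *Znf143 -/-* libraries. *Cd27*, which is present on stem and progenitor cells, had a log2 fold change of 0.02 (SE 0.0805).

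Of 22 other stem cell genes tested, *Thy1* and *Itgb3* rose and *Mecom* fell, and the median log2 fold change was -0.22. *Mecom*, a transcription factor needed for stem cell maintenance, had an FPKM of 9.01, 9.24 and 9.33 in *Znf143 f/f* and of 6.76, 6.01 and 6.05 in *Znf143 -/-* libraries (log2 fold change -0.55, SE 0.0898, adjusted p = 0.0208 from limma). *Itgb3*, the integrin beta 3 chain, had a log2 fold change of 0.66 (adjusted p = 0.0379 from limma). *Thy1*, the surface protein CD90, had a log2 fold change of 1.504 (adjusted p = 0.0450 from limma) from a mean FPKM of 0.833. Averaging the close pairs left 0 of the 22 called by limma. An unadjusted p under 0.05 was then held by 5 (9.91% of all tested genes), against 12 with all libraries (24.2% of all tested genes). On the deposited scale *Mecom* and *Itgb3* did not pass (adjusted p = 0.182 and 0.0873 from limma). Of 17 ligands and signalling partners of the 9 genes, 0 were called by limma, and 4 had an unadjusted p under 0.05, a share near that over all tested genes, and 0 with the close pairs averaged. *Angpt1*, the ligand of TIE2, had a log2 fold change of -0.37 (SE 0.0986, adjusted p = 0.0786 from limma, 0.545 with close pairs averaged). *Kitl*, the ligand of c-Kit, had 34 fragments or fewer per library and did not pass the filter.

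Because *Ly6a* is a gene that interferon induces, 29 further interferon-induced genes were read. Of these, 9 rose and 0 fell, with a median log2 fold change of 0.39. *Irf7*, a transcription factor of the interferon response, had an FPKM of 7.07, 5.26 and 6.45 in *Znf143 f/f* and of 25.9, 24.5 and 23.2 in *Znf143 -/-* libraries (log2 fold change 1.96, SE 0.125, adjusted p = 0.00082 from limma, 0.0319 with close pairs averaged). *Ifit3* and *Ifit1*, antiviral effectors, had log2 fold changes of 1.97 and 1.42 (adjusted p = 0.00868 and 0.00227 from limma), and *Rtp4* one of 0.96 (adjusted p = 0.00856). With close pairs averaged, *Irf7* was the 1 gene of the 29 that limma called.

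**Figure D4:**
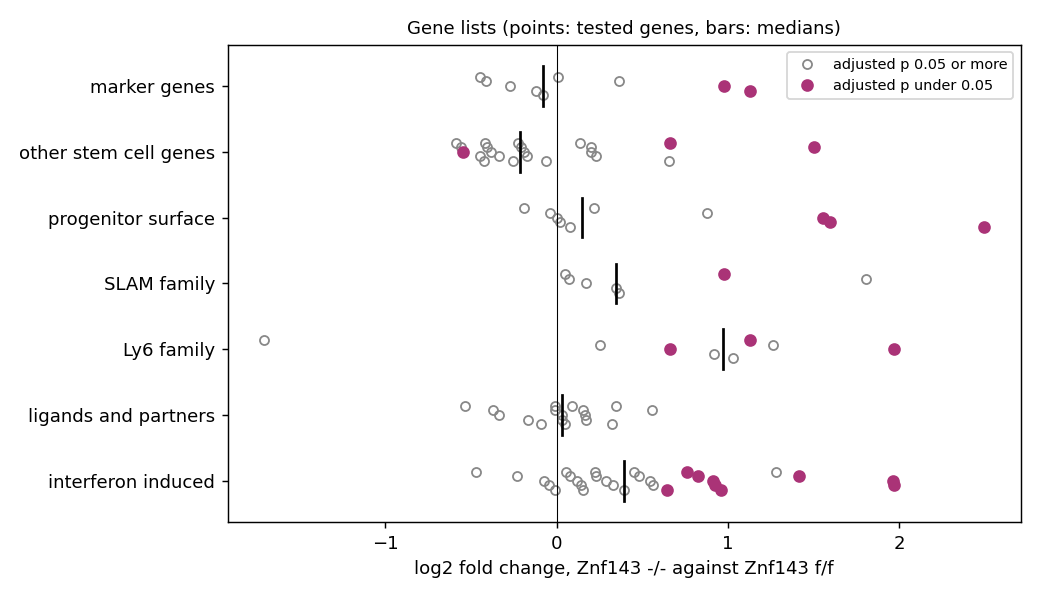
Log2 fold change (x axis) of the tested genes of the lists on the y axis, with filled points for an adjusted p under 0.05 from limma on rescaled FPKM, open points for the others, and black bars for list medians. The called genes of these lists lie to the right of 0 except *Mecom* among the other stem cell genes.

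Over the 6 libraries, the genes whose log2 level followed *Ly6a* most closely among 12557 genes averaging an FPKM of 1 or more were *Irf7* (Pearson r 0.9996), *Ly6e* (0.9994), *Cfap45* (0.999), *Gcc1* (0.998) and *Sparc* (0.996). These values describe the same 6 libraries and share the genotype difference and the close pairs. *Cd48* had an r of 0.961 with *Ly6a* and *Kit* one of -0.865.

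Markers of other blood cells were read as a measure of what the sorted cells held. The genes of the lineage antibodies and related lineage genes had a summed FPKM of 0.858 to 2.51 in *Znf143 f/f* and of 1.74 to 1.78 in *Znf143 -/-* libraries, with 0 of 4 tested genes called by limma and 0 of 4 at an unadjusted p under 0.05, with all libraries as with close pairs averaged. *Cd3e*, *Cd79a* and *Ly6g* were at an FPKM of 0.216 or less in every library. Of 9 neutrophil genes, *Elane*, *Ctsg*, *Camp*, *Ngp* and *S100a8* rose, and the summed FPKM was 201 to 268 in *Znf143 f/f* and 271 to 430 in *Znf143 -/-* libraries, most of it from *Prtn3*, which had a log2 fold change of 0.03. *Elane*, a granule protease, had an FPKM of 0.449, 0.0825 and 0.805 in *Znf143 f/f* and of 2.93, 10.9 and 9.80 in *Znf143 -/-* libraries. The lymphoid sum was 3.05 to 3.55 and 8.58 to 10.01, with *Dntt*, which encodes terminal deoxynucleotidyl transferase, called higher (adjusted p = 0.00641 from limma, 0.0648 with close pairs averaged). *Vpreb1*, a surrogate light chain and the other lymphoid gene tested, had a log2 fold change of -0.64 (adjusted p = 0.0593 from limma), and was called lower without the first *Znf143 -/-* library. *Il7r* was at 0 in all *Znf143 f/f* libraries and at most at 0.0436 in the others. The megakaryocyte sum was 542 to 624 and 676 to 1014 with 0 of 6 genes called by limma (3 at an unadjusted p under 0.05, 2 with close pairs averaged), and *Pf4* made up most of it. The erythroid sum was 78.3 to 121 and 92.9 to 97.3, with *Gata1* higher and *Hbb-bt* lower. The endothelial sum was 86.7 to 93.0 and 97.5 to 105.5, with *Cldn5* the 1 of 6 genes called, and *Egfl7*, which was not called, made up most of it. The stromal sum was 1.89 to 3.31 and 1.42 to 4.84 with 0 of 3 called by limma, also at an unadjusted p under 0.05. After averaging the close pairs, limma called 0 of the genes in these marker lists, and 6 of the 9 neutrophil genes had an unadjusted p under 0.05. Of all tested genes, 24.2% had such a p from limma with all libraries and 9.91% with close pairs averaged. The part of these markers in the rise of *Ly6a* and *Cd48* was not tested.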

How the data were processed

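RNA-seq of 6 libraries was used. The 19 ChIP-seq and HiC samples were not analysed here. The authors trimmed reads (TrimGalore), aligned them to GRCm38 (STAR), counted fragments (FeatureCounts) and ran DESeq2. They made libraries with a SMART-Seq v4 kit, which does not keep strand. The authors deposited the FPKM of each library per gene. Their deposited mean normalized signal, log2 fold change with its standard error, test score, p-value and adjusted p-value of the genotype comparison were not used.

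Whole fragments were recovered from FPKM times gene length (99.986% of 138696 values within 0.05 of a whole number). FPKM were divided by median-of-ratios size factors, and genes whose deposited FPKM averaged 0.1 or more were compared by limma 3.58.1 on log2(FPKM + 0.1) (lmFit, eBayes with a variance trend, R 4.3.3) and Benjamini-Hochberg adjustment over all 19296 genes. A fold change on this scale understates that of low genes. Fitting code was tested on simulated data. Sums and single values used Python 3.11.15 with pandas 2.3.3, numpy 2.4.6 and scipy 1.17.1. Coordinates are from GENCODE M21, and promoter sequences from RefSeq (GRCm38.p6).

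The marker genes and lists were chosen with earlier results of these data known. Named are the 9 genes, up to 4 called genes per list and direction by size of change, Ly6 and SLAM genes averaging an FPKM of 1 or more, the 5 genes most like *Ly6a*, and *Zfp143*. Further genes named for what they are known to do (*Cd27*, *Cd244*, *Angpt1*, *Kitl*, *Prtn3*, *Pf4*, *Il7r*, *S100a8* and the lineage genes) were chosen after their values were seen. *Vpreb1*, *Egfl7*, *Lypd2*, *Ly6i* and *Ly6k* were likewise named with their values known. Of the listed genes, 2 are not reported here. Alternatives were pseudocounts of 0.01 and 1, other filters, deposited scaling, voom on recovered fragments, no trend, a replicate block, and each library left out.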

Additional observations from a re-analysis of the deposited data

How the results depend on the processing

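With limma, leaving out 1 library at a time gave 223 to 2239 called genes and 2 to 5 of the 9 marker genes, the 5 without the second *Znf143 f/f* library. The log2 fold change then ranged from -0.515 to -0.355 for *Kit*, from -0.674 to -0.262 for *Tek*, from -0.453 to -0.173 for *Fgd5* and from -0.013 to 0.045 for *Cd34*. With close pairs averaged, 47 genes and 0 marker genes were called, with log2 fold changes of 0.934 for *Cd48*, 1.179 for *Ly6a* and -0.017 for *Cd34*. That fit rests on 2 values a genotype. As deposited, *Procr* was at 0.033. A replicate block called 191 genes and 1 marker gene, *Cd48*, with *Ly6a* at 1.128 (adjusted p = 0.0578 from limma). The mice were littermate pairs by the study's description, but the labels do not say which libraries form a pair, and the deviations of same-numbered libraries correlated at -0.095, -0.088 and 0.035. Limma's adjusted p over the 16 alternatives was 0.00121 to 0.144 for *Ly6a* and 0.00243 to 0.138 for *Cd48*. *Slamf1* (0.184 to 0.476) and *Esam* (-0.217 to -0.006) kept their direction and did not pass the threshold in any of these. Without the second *Znf143 f/f* library, limma called 4 Ly6, 2 SLAM, 3 progenitor surface and 3 other stem cell genes higher, the last with 2 lower, and 10 interferon-induced genes higher with 1 lower. Depth did not limit the 9 genes, each with at least 443 fragments in every library. The calls of *Kit*, *Tek* and *Fgd5* turned on the second *Znf143 f/f* library, without which they passed.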
